A study of Mus musculus with 12 samples.

Results

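Genes of cholesterol transport and of oxysterol synthesis and sensing were followed in macrophages and dendritic cells (DC) of the mouse large intestine that lacked, or carried, the transcription factor Runx3. There were 9 genes, chosen by name with earlier results of these data known: *Ch25h*, *Cyp7b1*, *Gpr183*, *Nr1h2*, *Nr1h3*, *Mylip*, *Abca1*, *Abcg1* and *Apoe*. A member was any row of the array whose single gene symbol was one of these 9. Of the 9 genes, 8 had exactly 1 such row among 35556 rows, of which 21789 carried 1 gene symbol. *Nr1h2* had no such row and is named only.

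The cells were sorted from the cecum of mice aged 6 to 8 weeks, and each sample pooled cells of 3 to 4 mice of both sexes. Runx3Δ mice carried *Runx3* fl/fl and a *CD11c*-Cre transgene, and WT mice were their littermates (*Runx3* +/+ in the labels). The paper describes CD11c as present in both DC and macrophages, with more of it in DC. Both sorts took Ly6c- cells with CD45, CD11c, MHC class II and CD11b on their surface. Resident macrophages (RM) were the cells of that gate with the macrophage protein that *Adgre1* encodes, and CD11b+ DC were those without it. The paper states that the CD11b+ DC held cells both with and without the surface protein CD103. By flow cytometry it reports fewer DC with CD103 in older, but not in younger, Runx3Δ mice. In bulk samples such a shift and a change per cell cannot be told apart. There were 4 Runx3Δ and 3 WT samples of RM, and 3 Runx3Δ and 2 WT samples of CD11b+ DC, on 12 arrays in all. Litter numbers in the labels tied samples of both genotypes and both cell types to shared litters, but the match was not complete. RM came from litters 1, 2, 3 and 4 in Runx3Δ and 1, 2 and 3 in WT. CD11b+ DC came from litters 1, 3 and 4 in Runx3Δ and 2 and 3 in WT. Only litter 3 thus held CD11b+ DC of both genotypes, so in these cells genotype and litter cannot be fully told apart.

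Cholesterol reaches a macrophage in lipoproteins and dying cells, is freed in the lysosome and leaves through transporters of the ABC family onto apolipoproteins such as ApoE. When sterol accumulates, oxidised derivatives of cholesterol (oxysterols) activate the liver X receptors LXRα (*Nr1h3*) and LXRβ (*Nr1h2*), which switch on *Abca1*, *Abcg1*, *Apoe* and *Mylip*. One oxysterol branch serves as a guidance cue: Ch25h makes 25-hydroxycholesterol, Cyp7b1 converts it further into 7α,25-dihydroxycholesterol, and immune cells follow that ligand with the receptor Gpr183 (EBI2). In the gut this axis is known for positioning DC and lymphoid cells.

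All values are log2 intensities of a row, so a difference of 1 is a doubling, and levels of different genes are not set against each other, since each row has its own probes. Array medians over all rows lay between 5.33 and 5.52. Each comparison was fitted with limma on the whole table. A gene passed if its Benjamini-Hochberg p over the 35556 rows fell under 0.05, and a second count used the rule of the study, at least 1.5-fold with p at or under 0.05 before adjustment (below, the study's thresholds). The sorts carried the marks of their labels: all 11 macrophage markers, *Adgre1* of the gate among them, were higher in RM than in CD11b+ DC, with a median log2 difference of 2.09 in WT, and all 9 DC markers were lower, with a median of -1.44. All 7 measured B and plasma cell markers were also higher in RM, by a median of 1.04 in WT. Their mean level was 8.63 to 9.16 in Runx3Δ RM and 8.28 to 9.67 in WT RM, against 7.69 to 8.42 in Runx3Δ CD11b+ DC and 7.50 to 8.22 in WT CD11b+ DC, and their part in the differences between cell types was not tested. The *Runx3* row averaged 9.94 ± 0.16 (SD, n = 4) in Runx3Δ RM and 9.69 ± 0.19 (SD, n = 3) in WT RM, and 10.04 ± 0.09 (SD, n = 3) in Runx3Δ CD11b+ DC and 10.05 ± 0.09 (SD, n = 2) in WT CD11b+ DC. The deletion takes out a single exon, so this level does not check it.

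**Figure D1:**
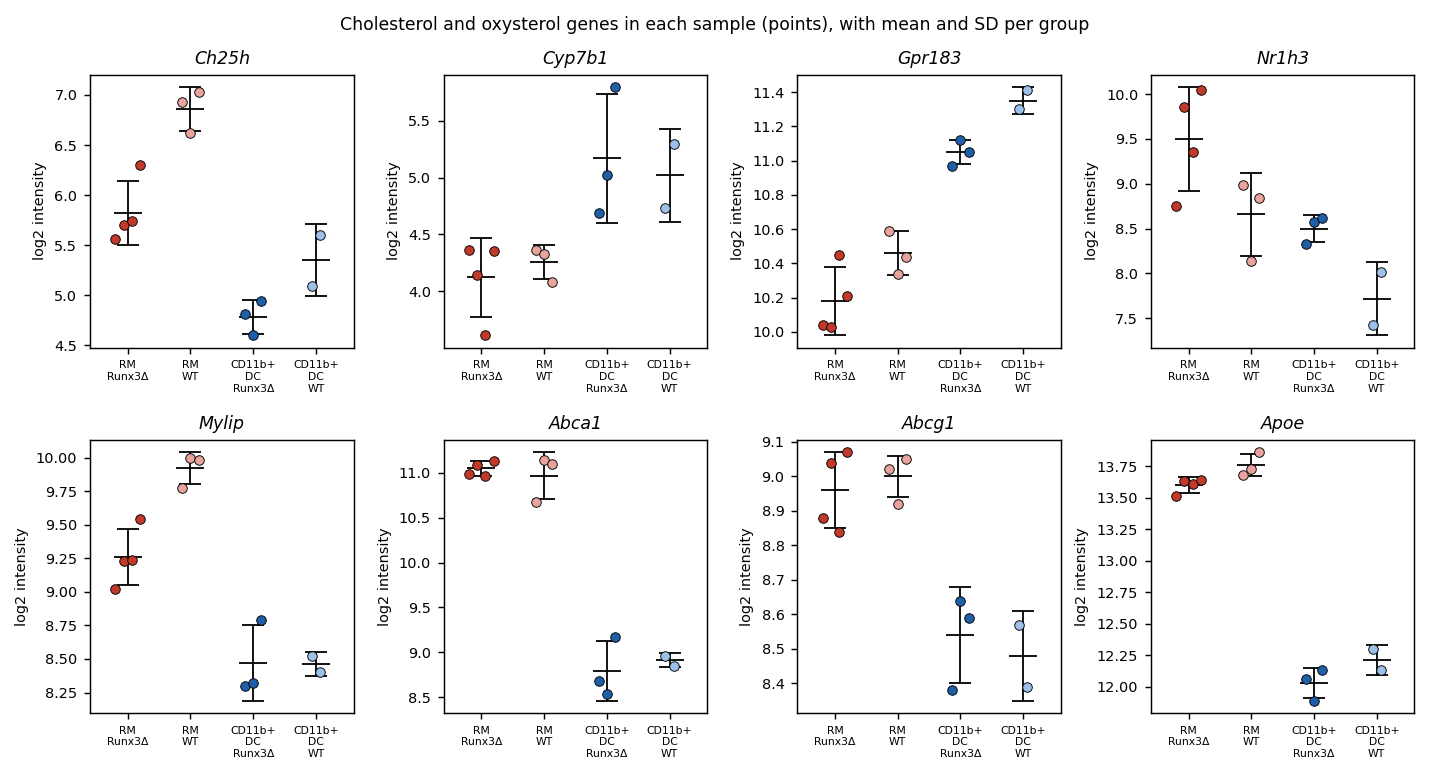
Log2 intensity (vertical axes, each with its own range) of the 8 measured genes in each of the 12 samples. Points are samples, and bars give the mean and SD of the 4 Runx3Δ RM, 3 WT RM, 3 Runx3Δ CD11b+ DC and 2 WT CD11b+ DC samples. *Ch25h*, *Mylip* and *Apoe* are lower in Runx3Δ than in WT RM without overlap, as are 3.43% of all rows. *Ch25h*, *Gpr183* and *Nr1h3* separate the genotypes in CD11b+ DC, as do 25.7% of all rows. All 8 genes separate RM from CD11b+ DC in both genotypes, against 19.5% of rows in Runx3Δ and 32.4% in WT.

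In RM, the clearest difference between Runx3Δ and WT among these genes was in *Ch25h* (row 10467136), the enzyme that starts the 25-hydroxycholesterol branch. Its log2 levels were 5.56, 5.70, 5.74 and 6.30 in Runx3Δ RM, against 6.93, 6.62 and 7.03 in WT RM. Every Runx3Δ sample lay below every WT sample. Group means were 5.82 ± 0.32 (SD, n = 4) in Runx3Δ RM and 6.86 ± 0.22 (SD, n = 3) in WT RM, a log2 difference of -1.03 (standard error 0.19), or 2.05-fold lower. The 95% confidence interval of the difference ran between -1.45 and -0.62. Between littermates the difference was -1.37 in litter 1, -0.91 in litter 2 and -1.29 in litter 3. The limma test gave an unadjusted p of 0.000200 and an adjusted p of 0.148, above the threshold. When only the rows with 1 gene symbol were fitted, the same difference passed, with a limma adjusted p of 0.0360, as it did with the brightest row of each gene (adjusted p = 0.0328) and the mean of its rows (adjusted p = 0.0335). Over all 25 alternatives the adjusted p ran between 0.0328 and 0.677 and the difference between -1.19 and -0.95.

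The promoter of *Ch25h* is shown because it was the only one, among the 7 of the 9 genes with a promoter in the RefSeq table, that held the RUNX recognition letters TGTGGT or TGCGGT on either strand. The stretch lies at chr19:34475141-34475160 (GRCm38.p6), is read on the strand of the gene (minus), and carries the match, ACCACA on this strand, in capitals with its first base 5 bases before the annotated start.
*Ch25h*: tggggagACCACAattgtgg
Each promoter covered 300 bases around a start. Of 32851 mouse promoters of that length 22.4% held such a match. The LXR element DR4, a pair of AGGTCA copies with 4 bases between them, searched on both strands with up to 2 mismatches, was found in none of the 7 genes' promoters and in 3.02% of all promoters. A match is a stretch of letters and not a measured binding site.

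*Mylip* (row 10404874), an LXR target that encodes the ubiquitin ligase IDOL and sends the LDL receptor for degradation, had log2 levels of 9.02, 9.23, 9.24 and 9.54 in Runx3Δ RM, against 9.77, 10.00 and 9.98 in WT RM. The groups did not overlap. Means were 9.26 ± 0.21 (SD, n = 4) in Runx3Δ RM and 9.92 ± 0.12 (SD, n = 3) in WT RM, which is 1.58-fold lower, or -0.66 on the log2 scale (standard error 0.15, limma adjusted p = 0.235). The 3 littermate differences were nearly equal, at -0.75, -0.77 and -0.74. Over 25 alternatives the adjusted p stayed between 0.0568 and 0.677. *Ch25h* and *Mylip* stood in the study's own list of genes for RM, which was drawn from these same samples, so their direction here is not independent evidence.

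*Nr1h3* (row 10484987), which encodes LXRα, lay the other way. Its levels were 8.75, 9.86, 9.35 and 10.05 in Runx3Δ RM, against 8.99, 8.14 and 8.84 in WT RM. Runx3Δ replicate 1 lay below 2 of the 3 WT samples, so the groups overlapped. The difference of means was 0.85 (standard error 0.30, limma adjusted p = 0.527), or 1.80-fold. It was not even among littermates, at -0.25 in litter 1, 1.73 in litter 2 and 0.51 in litter 3. Without Runx3Δ RM replicate 1 the difference was 1.10, without Runx3Δ RM replicate 4 it was 0.66, and without WT RM replicate 2 it was 0.58. In both of the last cases *Nr1h3* no longer met the study's thresholds. Its unadjusted p fell under 0.05 in 22 of the 25 alternatives.

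In total, 0 of the 8 measured genes passed the adjusted threshold in RM by limma, where 0.0141% of all rows did, and 0 passed by the methods' test after adjustment. At an unadjusted p under 0.05 there were 4 genes (*Ch25h*, *Mylip*, *Nr1h3* and *Gpr183*), against 7.96% of all rows. The study's thresholds were met by 3 genes, *Nr1h3* higher and *Ch25h* and *Mylip* lower, against 1.46% of all rows. Runx3Δ and WT RM did not overlap for 3 genes, all lower (*Ch25h*, *Mylip* and *Apoe*), where 3.43% of rows were lower without overlap. The median log2 difference of the 8 genes was -0.15, beside 0.01 over rows with 1 gene symbol. The genes were chosen with earlier results of these data known, and *Ch25h* and *Mylip* stood in the study's list. The counts above are therefore not independent of that choice, and their excess over the shares of all rows is no evidence by itself.

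The receptor and the second enzyme of the 25-hydroxycholesterol branch met neither threshold in RM. *Gpr183* (row 10422496) had levels of 10.04, 10.03, 10.45 and 10.21 in Runx3Δ RM, against 10.59, 10.34 and 10.44 in WT RM. These overlapped, with a log2 difference of -0.27 (standard error 0.11, limma adjusted p = 0.586). *Cyp7b1* (row 10497381) lay at 4.36, 4.14, 3.61 and 4.35 in Runx3Δ RM, against 4.36, 4.33 and 4.08 in WT RM. Its difference was -0.14, with a 95% confidence interval of -0.72 to 0.44. These levels are below the array medians, and no detection call was used here, so whether *Cyp7b1* stood above background in RM is unknown.

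The cholesterol exporters met neither threshold between Runx3Δ and WT RM. *Abca1* (row 10512949), which loads cholesterol onto lipid-poor apolipoproteins, had levels of 10.99, 11.09, 10.97 and 11.13 in Runx3Δ RM, against 10.67, 11.14 and 11.10 in WT RM. The interval of its log2 difference, -0.27 to 0.42, leaves room for changes of up to 1.34-fold. *Abcg1* (row 10443730), which passes cholesterol to HDL, lay at 8.84 to 9.07 in Runx3Δ RM and 8.92 to 9.05 in WT RM, with an interval of -0.26 to 0.18. *Apoe* (row 10560624), the apolipoprotein that macrophages secrete, had 13.51, 13.63, 13.61 and 13.64 in Runx3Δ RM, against 13.68, 13.73 and 13.86 in WT RM. All Runx3Δ samples were lower, with a log2 difference of -0.16 (standard error 0.09, limma adjusted p = 0.706). Of these LXR targets *Mylip* met the study's thresholds in RM, and *Abca1*, *Abcg1* and *Apoe* did not. Whether the targets differed from each other was not tested.

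**Figure D2:**
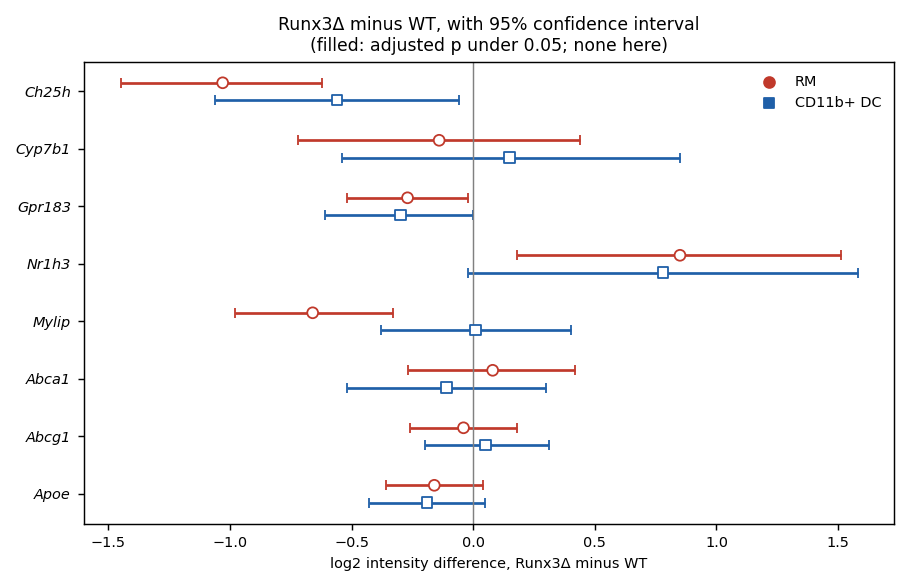
Log2 difference, Runx3Δ minus WT (horizontal axis), for the 8 measured genes in RM (circles) and CD11b+ DC (squares), with 95% confidence intervals from the fit over 12 samples. Open symbols did not pass the adjusted threshold, and all are open. The intervals of *Ch25h* and *Mylip* in RM lie below 0 by the widest margin, at -1.45 to -0.62 and -0.98 to -0.33.

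*Ch25h* is known as an interferon-induced gene, so the levels of interferon and stress genes are given beside it. Of 15 measured genes of the type I interferon response, 15 had a negative log2 difference in Runx3Δ RM, with a median of -0.75. Of these, 9 met the study's thresholds, all lower, and 0 passed after adjustment. Over all rows in RM, 0.731% were lower at the study's thresholds and 56.4% had a difference above 0. The mean level of the list was 7.85 to 8.25 over the Runx3Δ RM samples and 8.30 to 9.37 over the WT RM samples. Immediate-early and dissociation stress genes had a median of -0.40, with 13 of 16 below 0, 2 lower at the study's thresholds and mean levels of 10.56 to 10.89 in Runx3Δ RM and 10.41 to 11.46 in WT RM. The 11 macrophage markers had a median of -0.10, with 10 below 0. Of them *Cx3cr1* was lower at the study's thresholds, at 9.85 in Runx3Δ RM and 10.44 in WT RM. The 5 measured monocyte markers had a median of -0.25, with 4 below 0. Of them *Plac8* was higher at those thresholds, at 9.49 in Runx3Δ RM and 8.69 in WT RM. The part of any of these lists in the *Ch25h* difference was not tested. In bulk samples fewer cells with a transcript and less of it per cell cannot be told apart.

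In CD11b+ DC, *Ch25h* was at 4.81, 4.60 and 4.94 in Runx3Δ samples, against 5.09 and 5.60 in WT samples. All 3 Runx3Δ samples were lower, with a log2 difference of -0.56 (standard error 0.23, limma adjusted p = 0.689), or 1.48-fold lower, at levels near or below the array medians. *Gpr183* had 10.97, 11.12 and 11.05 in Runx3Δ CD11b+ DC, against 11.30 and 11.41 in WT CD11b+ DC. This is again a separation without overlap, of -0.30 (standard error 0.14, limma adjusted p = 0.740). *Nr1h3* stood at 8.33, 8.57 and 8.62 in Runx3Δ CD11b+ DC, against 7.43 and 8.02 in WT CD11b+ DC. Here too the groups were apart, with all Runx3Δ samples higher, and the difference was 0.78 (standard error 0.36, limma adjusted p = 0.751).

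*Mylip* did not separate the genotypes of CD11b+ DC, at 8.30, 8.32 and 8.79 in Runx3Δ samples, against 8.52 and 8.40 in WT samples. Its difference was 0.01, with a 95% confidence interval of -0.38 to 0.40, and within litter 3 it was -0.08. The log2 differences of *Cyp7b1*, *Abca1*, *Abcg1* and *Apoe* were 0.15, -0.11, 0.05 and -0.19, and each pair of groups overlapped.

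By limma, 0 of the 8 genes passed in CD11b+ DC after adjustment, where 0 of all rows did (0.00%), and 0 passed by the methods' test. At an unadjusted p under 0.05 there were 2 (*Ch25h* and *Gpr183*), against 6.74% of rows. The study's thresholds were met by 0 of the 8 and by 2.13% of rows. This count was 1 in several other settings. With the litter number as a block *Ch25h* met the thresholds, at -0.81 (limma adjusted p = 0.553). Leaving out WT replicate 1 or Runx3Δ replicate 3 of the CD11b+ DC brought in *Ch25h*, at -0.81 and -0.64, whereas without WT replicate 2 its difference was only -0.31. Leaving out WT replicate 2 of the CD11b+ DC brought in *Nr1h3*, at 1.07, whereas without WT replicate 1 its difference was 0.49. With WT RM replicate 2, Runx3Δ RM replicate 1 or Runx3Δ RM replicate 4 left out, *Nr1h3* also met them, at an unchanged 0.78. Groups without overlap, as in 3 of the 8 genes, were seen in 25.7% of all rows. Beside these differences, the 5 measured monocyte markers had a median of -1.33 in CD11b+ DC, 3 of them lower at the study's thresholds. Their mean level was 7.87 to 8.72 in Runx3Δ CD11b+ DC and 9.29 to 9.69 in WT CD11b+ DC. *Plac8* went the other way, at 10.98 in Runx3Δ and 10.32 in WT samples. The 9 DC markers had a median of -0.06, 6 of them below 0. Of them *Irf4* (9.98 in Runx3Δ, 10.64 in WT) and *Cd24a* (10.37 and 11.16) were lower at those thresholds. The 11 macrophage markers had a median of 0.05, 5 of them below 0. Of them *Mrc1* (9.34 and 10.55) was lower at those thresholds. The part of these lists was not tested. The median of the type I interferon genes was -0.42 and that of the immediate-early and stress genes -0.40 in CD11b+ DC, with 4 and 2 genes lower at the study's thresholds. For T and NK cell, stromal and endothelial, epithelial, and granulocyte and mast cell markers the median log2 difference, Runx3Δ minus WT, was 0.20, -0.22, 0.16 and 0.11 in RM and 0.25, -0.46, 0.26 and -0.08 in CD11b+ DC.

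Whether the difference between genotypes itself differed between the cell types was fitted as an interaction. By limma 0 of the 8 genes passed after adjustment, where 0.00% of rows did, and 0 passed by the methods' test. At an unadjusted p under 0.05 there was 1, *Mylip*, against 3.91% of rows. Its p was 0.0150, with a log2 value of -0.66 (standard error 0.23, adjusted p = 1.00), and it was the only member at the study's thresholds, which 1.95% of rows met. It no longer met them when Runx3Δ CD11b+ DC replicate 3 was left out, where the count was 0, and *Ch25h* joined it, for a count of 2, when Runx3Δ RM replicate 4 was left out. When WT CD11b+ DC replicate 2 was left out, *Ch25h* met them at -0.73 in place of *Mylip*, and when WT CD11b+ DC replicate 1 was left out its value was -0.22. The value for *Ch25h* with all samples was -0.47, with a 95% confidence interval of -1.12 to 0.18. For *Nr1h3* it was 0.07, with an interval of -0.98 to 1.11, which is too wide to tell a shared difference from an unequal one.

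More of these genes passed between cell types than between genotypes. The comparisons of RM with CD11b+ DC use the same samples as those of Runx3Δ with WT, so the 2 kinds of comparison are not independent. In Runx3Δ mice 7 of the 8 genes passed after adjustment by limma, 5 higher and 2 lower in RM than in CD11b+ DC, against 7.85% of all rows (3.73% higher and 4.12% lower). In WT mice 6 passed, 5 higher and 1 lower, against 6.07% of rows (3.05% higher and 3.02% lower). Among rows with 1 gene symbol, as all members are, the share was larger. With these 21789 rows fitted alone, 3043 passed in Runx3Δ and 2455 in WT. None of the 8 genes overlapped between RM and CD11b+ DC in either genotype, as for 19.5% of rows in Runx3Δ and 32.4% in WT. The median log2 difference over the 8 genes was 0.90 in Runx3Δ and 1.19 in WT, beside 0.02 and 0.01 over rows with 1 gene symbol.

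*Abca1* had the largest difference between cell types of the 8 genes. It was at 10.97 to 11.13 in Runx3Δ RM, against 8.68, 8.53 and 9.17 in Runx3Δ CD11b+ DC, and at 10.67 to 11.14 in WT RM, against 8.96 and 8.85 in WT CD11b+ DC. RM was 4.76-fold higher in Runx3Δ (log2 difference 2.25, standard error 0.16, limma adjusted p = 1.76e-05) and 4.18-fold higher in WT (2.06, standard error 0.19, adjusted p = 0.000104). No sample of one cell type came within 1 log2 unit of the other. *Apoe* was 2.97-fold higher in Runx3Δ RM than in Runx3Δ CD11b+ DC, where its 3 values were 12.06, 11.89 and 12.13, with a limma adjusted p of 5.87e-06. In WT it was 2.92-fold higher in RM than in CD11b+ DC, at 12.30 and 12.13, with a limma adjusted p of 3.49e-05. *Abcg1* had the smallest difference of the 8. Its levels were 8.38, 8.64 and 8.59 in Runx3Δ CD11b+ DC and 8.57 and 8.39 in WT CD11b+ DC, and RM was 1.34-fold higher in Runx3Δ (limma adjusted p = 0.0236) and 1.43-fold higher in WT (adjusted p = 0.0253).

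The calls on *Abcg1* rested on single samples and settings. In WT the adjusted p of limma was 0.0859 without WT RM replicate 3, 0.0665 without WT CD11b+ DC replicate 1 and 0.221 without WT CD11b+ DC replicate 2. In Runx3Δ it was 0.0660 and 0.0658 without RM replicates 2 and 4, and 0.0983 and 0.0566 without CD11b+ DC replicates 1 and 3. With litters as a block it was 0.0551 in Runx3Δ. The calls were also lost with only the groups compared (0.0521 in Runx3Δ and 0.107 in WT) and with median centring (0.0986 in Runx3Δ and 0.0741 in WT).

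*Mylip* was higher in RM than in CD11b+ DC in both genotypes, by 0.79 in Runx3Δ (standard error 0.15, limma adjusted p = 0.00716) and by 1.45 in WT (standard error 0.18, adjusted p = 0.000607). Between littermates the Runx3Δ difference was 0.72, 0.92 and 0.75, and the WT difference 1.47 and 1.57. *Ch25h* was higher in RM by 1.04 in Runx3Δ (standard error 0.19, adjusted p = 0.00605) and by 1.51 in WT (standard error 0.23, adjusted p = 0.00228). Ordered by mean, *Ch25h* was highest in WT RM (6.86), then in Runx3Δ RM (5.82) and WT CD11b+ DC (5.35), and lowest in Runx3Δ CD11b+ DC (4.78). The middle groups overlapped, since WT CD11b+ DC reached 5.60 and Runx3Δ RM began at 5.56. *Mylip* averaged 9.26 in Runx3Δ RM and 9.92 in WT RM, while its CD11b+ DC groups, at 8.47 in Runx3Δ and 8.46 in WT, did not differ beyond their spread.

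The receptor of the branch had the opposite cell type pattern to its first enzyme. *Gpr183* was lower in RM than in CD11b+ DC, with a log2 difference of -0.86 in Runx3Δ (standard error 0.11, limma adjusted p = 0.000812) and of -0.90 in WT (standard error 0.14, adjusted p = 0.00261). *Cyp7b1* lay with it, at 4.69, 5.02 and 5.80 in Runx3Δ CD11b+ DC and 4.73 and 5.30 in WT CD11b+ DC, all above every RM sample. All but the 5.80 lay below the array medians, so whether *Cyp7b1* stood above background in CD11b+ DC is unknown too. The *Cyp7b1* difference passed in Runx3Δ (-1.05, standard error 0.26, limma adjusted p = 0.0322) and not in WT (-0.76, standard error 0.32, adjusted p = 0.235). Its Runx3Δ call was lost without RM replicate 2 (adjusted p = 0.0707) or 3 (0.0775), and without CD11b+ DC replicate 2 (0.0797) or 3 (0.114). It was also lost with only the groups compared (0.0643) and by the methods' test on 4 groups (0.0889) or on the groups compared (0.197). *Nr1h3* was higher in every RM sample than in every CD11b+ DC sample of the same genotype, by 1.00 in Runx3Δ (standard error 0.30, adjusted p = 0.0755) and by 0.93 in WT (standard error 0.36, adjusted p = 0.200). The Runx3Δ difference passed in 5 of 25 alternatives. These were array weights (limma adjusted p = 0.0165), rows with 1 gene symbol (0.0282), the brightest row per gene (0.0271), the mean of rows (0.0278) and the omission of Runx3Δ RM replicate 1, where it was 1.25 (0.0144).

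**Figure D3:**
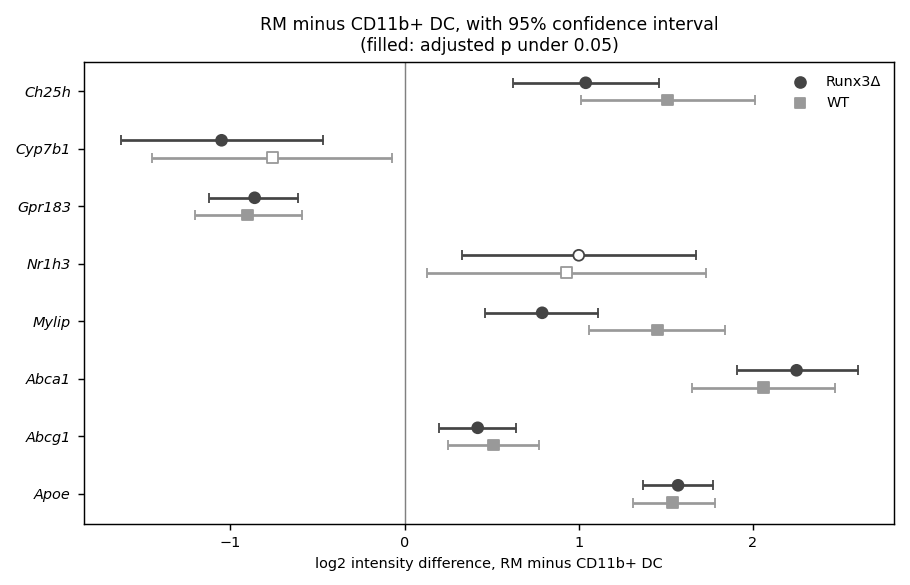
Log2 difference, RM minus CD11b+ DC (horizontal axis), for the 8 measured genes in Runx3Δ (circles) and WT (squares) mice, with 95% confidence intervals from the fit over 12 samples. Filled symbols passed the adjusted threshold. *Abca1* is highest, at 2.25 in Runx3Δ and 2.06 in WT, and *Gpr183* and *Cyp7b1* lie below 0 in both genotypes.

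Genes outside the 9 were read from 4 lists of the same pathway, after removal of the members. Among 8 other genes of oxysterol synthesis and breakdown, 0 passed after adjustment in either cell type between Runx3Δ and WT, and 4 were above and 4 below 0 in RM. *Sult2b1*, a sulfotransferase that inactivates oxysterols, met the study's thresholds in CD11b+ DC. It averaged 6.40 ± 0.18 (SD, n = 3) in Runx3Δ CD11b+ DC and 7.11 ± 0.15 (SD, n = 2) in WT CD11b+ DC, a log2 difference of -0.71 (standard error 0.13, limma adjusted p = 0.237). In RM it was at 5.84 ± 0.11 (SD, n = 4) in Runx3Δ and 6.14 ± 0.03 (SD, n = 3) in WT samples, a difference of -0.30 (adjusted p = 0.516). *Sult2b1* thus separated the genotypes without overlap in both cell types, at p-values that did not pass. Of all rows, 12.6% were lower without overlap in CD11b+ DC and 3.43% in RM.

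Among 11 other LXR target genes, 0 passed between Runx3Δ and WT in either cell type, with medians of 0.08 in RM and -0.05 in CD11b+ DC. The lipoprotein lipase gene *Lpl* met the study's thresholds in CD11b+ DC, at 7.53 ± 0.82 (SD, n = 3) in Runx3Δ and 9.46 ± 0.65 (SD, n = 2) in WT samples. This is 3.82-fold lower (log2 difference -1.93, standard error 0.56, limma adjusted p = 0.510). *Pltp*, the phospholipid transfer protein gene, had the smallest p in RM, at 12.44 ± 0.10 (SD, n = 4) in Runx3Δ and 12.67 ± 0.08 (SD, n = 3) in WT samples, with an adjusted p of 0.537.

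Of 15 other genes of cholesterol uptake, storage and export, 0 passed between genotypes. In RM 2 met the study's thresholds, both higher, against 0.728% of all rows. They encode lipoprotein receptors. *Lrp1* averaged 9.93 ± 0.32 (SD, n = 4) in Runx3Δ RM and 9.32 ± 0.29 (SD, n = 3) in WT RM, 1.52-fold higher without overlap (limma adjusted p = 0.492). In CD11b+ DC all *Lrp1* samples lay the other way, at 8.54 ± 0.24 (SD, n = 3) in Runx3Δ and 9.03 ± 0.29 (SD, n = 2) in WT samples, a log2 difference of -0.50 (adjusted p = 0.761). The interaction of *Lrp1* was 1.10 (standard error 0.31, adjusted p = 1.00) and met the study's thresholds. *Olr1*, the receptor for oxidised LDL, averaged 9.80 ± 0.78 (SD, n = 4) in Runx3Δ RM and 8.89 ± 0.49 (SD, n = 3) in WT RM, with overlap (adjusted p = 0.601). In CD11b+ DC the smallest p was that of *Msr1*, scavenger receptor A, at 8.77 ± 0.35 (SD, n = 3) in Runx3Δ and 8.33 ± 0.02 (SD, n = 2) in WT samples (adjusted p = 0.707).

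Of 21 genes of cholesterol synthesis, 0 passed and 0 met the study's thresholds in either cell type. In RM 16 were below 0 and 4 above, with a median of -0.13. The smallest p in RM was that of *Sc5d*, a late enzyme of the pathway, at 8.60 ± 0.03 (SD, n = 4) in Runx3Δ RM and 8.97 ± 0.06 (SD, n = 3) in WT RM. The groups did not overlap, and the log2 difference was -0.37 (standard error 0.09, limma adjusted p = 0.266). In CD11b+ DC it was that of *Tm7sf2*, a sterol reductase gene, at 6.19 ± 0.06 (SD, n = 3) in Runx3Δ and 5.73 ± 0.01 (SD, n = 2) in WT samples (adjusted p = 0.438). Among the list genes named so far, *Lpl*, *Msr1* and *Tm7sf2* also met the study's thresholds in the interaction, at 2.06, -0.65 and -0.68, each with a limma adjusted p of 1.00.

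Between cell types more of these genes passed. Of the 15 uptake, storage and export genes outside the members, 5 passed as higher in RM in Runx3Δ and 4 in WT, and 0 as lower in either. Of the 21 synthesis genes, 0 passed as higher and 5 as lower in Runx3Δ, and 3 as higher and 2 as lower in WT. Over all rows, 3.73% passed as higher and 4.12% as lower in Runx3Δ, and 3.05% as higher and 3.02% as lower in WT. The examples that follow were chosen after their values were seen. *Msr1* was higher in RM by 2.03 in Runx3Δ (limma adjusted p = 2.69e-05) and by 2.68 in WT (3.32e-05). *Nceh1*, a cholesteryl ester hydrolase gene, was higher by 1.06 in Runx3Δ (adjusted p = 0.00219) and by 1.29 in WT (0.00260). *Srebf2*, the transcription factor that drives cholesterol synthesis, was lower in RM, with log2 differences of -0.91 in Runx3Δ (limma adjusted p = 0.000869) and -0.96 in WT (0.00244).

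**Figure D4:**
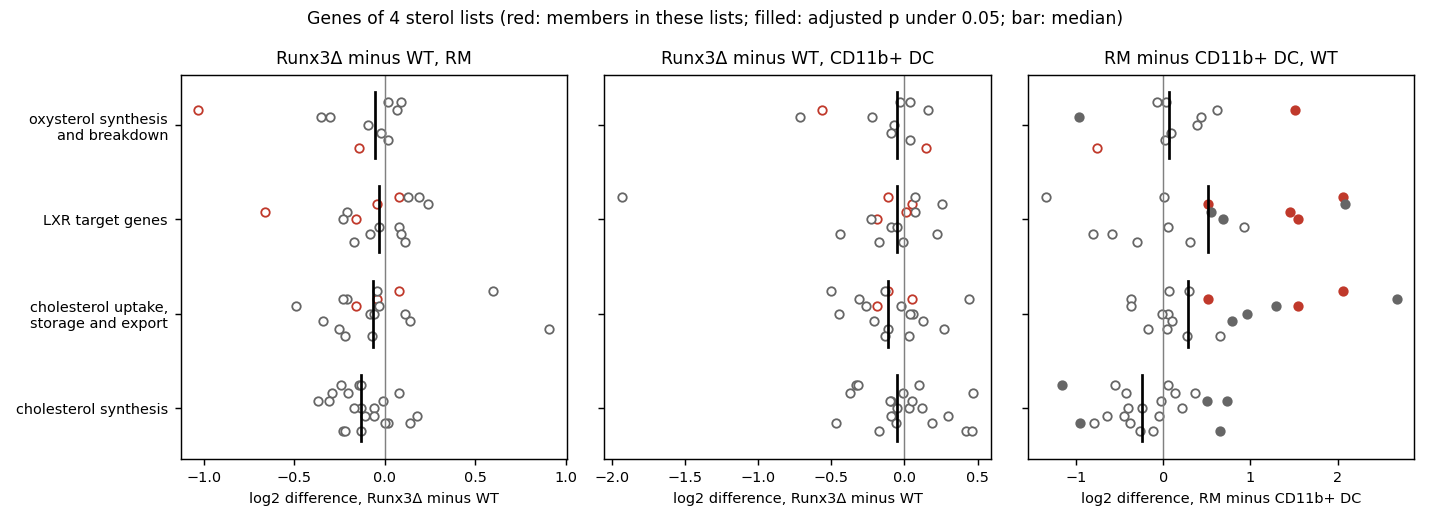
Log2 differences of the measured genes of 4 sterol lists, Runx3Δ minus WT in RM (left), Runx3Δ minus WT in CD11b+ DC (middle) and RM minus CD11b+ DC in WT (right), each panel with its own range. Points are genes, in red for the 6 members these lists hold (*Ch25h*, *Cyp7b1*, *Mylip*, *Abca1*, *Abcg1* and *Apoe*) and grey for others, filled where the adjusted p was under 0.05, and bars are list medians with members included. Between genotypes no gene is filled, and *Lpl* at -1.93 in CD11b+ DC and *Ch25h* at -1.03 in RM lie furthest from 0.

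For the 6 members whose SD over the 12 samples was above 0.5, the genes nearest in pattern were sought among 20159 rows by the root mean square difference of log2 values centred on their own mean. The pattern of *Abca1* was nearest to the complement genes *C1qc* (0.13) and *C1qa* (0.15) and to *Selenop* (0.20). That of *Apoe* was nearest to *Rgl1* (0.12), *C1qb* (0.12) and *Csf1r* (0.13), and that of *Mylip* to *Zfyve9* (0.12), *Hgsnat* (0.16) and *Sfxn5* (0.16). These values were small against the spread of the genes themselves, with SDs of 1.14 for *Abca1*, 0.81 for *Apoe* and 0.63 for *Mylip*. For *Ch25h* the values were larger: *Ntpcr* (0.24), *Rcan1* (0.26) and the interferon-induced gene *Oasl1* (0.29) came first, beside an SD of 0.82. For *Nr1h3* they were *Calhm6* (0.24), *Ly9* (0.27) and *Fabp5* (0.27), and for *Cyp7b1* *Gmppb* (0.26), *Ube2c* (0.30) and *Tbx21* (0.30). All of these values come from the same 12 arrays and are a description.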

How the data were processed

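The authors extracted RNA from sorted cells and hybridised it to Affymetrix arrays (the methods name an exon array, the annotation used here is that of a gene-level array). Normalization was done by the authors in Partek, using RMA with GC correction. The deposited table holds log2 intensities and was not normalized again. The submitters' notes name the mm9 build. Of 35556 rows, 21789 carried 1 gene symbol, 1621 several and 12146 none. The number of arrays limits the precision, and no detection call was used. One limma model (version 3.58.1, R 4.3.3) held all 4 groups, and statmod 1.5.0 served the random block. Figures used Python 3.11.15 and matplotlib 3.10.9, and promoters came from RefSeq (GRCm38.p6). The fit was also run on simulated data with independent noise and no litter effect, which does not check the calls made here. The methods' test was least squares without moderation.

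The members, lists and alternatives were chosen with earlier results of these data known. The list genes named were those at either threshold between genotypes, at most 4 per list and comparison, or else the 1 with the smallest p. A gene with several rows was read from its brightest row. The neighbours in pattern were the 3 nearest rows with 1 gene symbol, without predicted genes.

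Pairing came from the litter numbers in the labels, taken to mark shared litters. After removal of group means, the median correlation was 0.132 over 13 pairs of samples from 1 litter (-0.00261 to 0.507) and -0.0334 over 40 pairs from different litters (-0.323 to 0.209). The 3 pairs of Runx3Δ and WT RM had 0.0672 (-0.00261 to 0.182).

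The alternatives were the litter as a fixed or random block, only the groups compared, the methods' test on 4 groups or the groups compared, eBayes with trend and robust prior, weighted arrays, rows at a log2 level of 5 or more, rows with 1 gene symbol, arrays centred on their medians or quantile normalized, the brightest row or the mean of rows per gene, and each sample left out.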

Additional observations from a re-analysis of the deposited data

How the results depend on the processing

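Over the alternatives, 27 values changed sign, and each was under 0.25 in size and passed no threshold. With the litter as a fixed block the differences between Runx3Δ and WT in CD11b+ DC were -0.10 for *Cyp7b1* and -0.04 for *Mylip*, the call on *Abcg1* between cell types in Runx3Δ was lost and the count of members in CD11b+ DC at the study's thresholds was 1 in place of 0. The block changed no other call. With array weights the interaction of *Apoe* was -0.01. With median centring the interactions of *Gpr183* and *Apoe* were -0.01 and -0.01, and with quantile normalization *Abcg1* in RM was 0.02.

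With 1 sample left out, the differences in RM ran between -0.07 and 0.16 for *Abca1* and reached 0.03 for *Cyp7b1*, whose lowest value was -0.23. In CD11b+ DC they ran between -0.16 and 0.44 for *Cyp7b1*, -0.15 and 0.09 for *Mylip*, -0.30 and 0.02 for *Abca1*, and -0.04 and 0.15 for *Abcg1*. The interactions ran between -0.58 and 0.02 for *Cyp7b1*, -0.06 and 0.10 for *Gpr183*, -0.23 and 0.36 for *Nr1h3*, and -0.06 and 0.11 for *Apoe*. The cause of these was not tested.

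Of the counts of members, that in RM between genotypes was 0 after adjustment, 1 (*Ch25h*) with rows with 1 gene symbol, the brightest row per gene or the mean of rows, where fewer rows were tested, and 3 at the study's thresholds. The count in CD11b+ DC at the study's thresholds was 1 with only the groups compared, array weights, quantile normalization, rows with 1 gene symbol, the brightest row or the mean of rows, and 0 to 1 with a sample left out. The interaction had 1 member at the study's thresholds, and 0 to 2 with a sample left out. The methods' test on only the groups compared called 0 of 8 members between RM and CD11b+ DC in WT and 3 in Runx3Δ, with fewer samples in each fit. With 1 WT CD11b+ DC sample left, that sample was assumed to vary like the other groups. No other count of calls moved by more than 1.5 times.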
